A study of Mus musculus with 24 samples.

Results

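The subunits of the oxidative phosphorylation complexes were examined in the mouse hippocampus. The members were all array probes whose gene name begins with Nduf, Sdh, Uqcr, Atp5, Cox4, Cox5, Cox6, Cox7 or Cox8, which gave 86 of the 27827 gene names on the array, read by 125 of its 41174 probes. The scanner software found 121 of these well above background on 4 or more of the 24 arrays, and these were kept. They comprised 111 probes of 78 subunit genes (56 probes for complex I, 6 for II, 10 for III, 16 for IV and 23 for V), 1 probe of Cox8b, which is treated apart, and 9 probes of 6 genes that share a prefix and are no subunits. Subunits were assigned to complexes by the prefix of the name alone, which counts Ndufa4 among the accessory probes of complex I. The 4 probes not kept were the only probe of Cox8c and 1 cDNA probe each of Ndufab1, Ndufs1 and Ndufs4, genes that also had kept probes. The cDNA probe of Ndufs4 was well above background on 3 arrays and the Cox8c probe on 1. The kept probes nearest the limit, of Cox4i2 and a cDNA clone of Ndufb8, were so on 21 and 22.

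The mice were C57Bl/6, and the hippocampal RNA of each was hybridized separately to an Agilent array in 1 colour, with 4 mice in each of 6 groups. Young fear and old fear mice, aged 3 and 16 months, spent 3 min in a chamber and then received 1 foot shock (0.7 mA, 2 s), and the tissue was collected 1 h later. Young control and old control mice of these ages were handled but not trained. Young context mice, aged 3 months, saw the chamber without a shock, and young shock-context mice, also 3 months old, were shocked at once and explored it afterwards. Signals are log2 values after quantile normalization over the 24 arrays, and they compare arrays within a probe, not one probe with another.

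Oxidative phosphorylation is how mitochondria turn the energy of food into ATP. Complex I takes electrons from NADH and complex II takes them from succinate, complex III passes them to cytochrome c, and complex IV hands them to oxygen. Complexes I, III and IV pump protons across the inner membrane, and complex V, the ATP synthase, makes ATP as protons flow back. Neurons depend on this supply for synaptic transmission. All members are nuclear genes. Complex I has core subunits and accessory subunits, which surround the core. The core subunits among the members are only those encoded in the nucleus, which carry the redox chemistry.

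The arrays fell into 2 sets by a part of the scan date in the file headers. Each set is called a scan run here, though its arrays were not shown to be scanned together. The 16 control and fear arrays were dimmer, with the 75th percentile of their signals at 757 to 2137, and belonged to one scan run. The 8 context and shock-context arrays, at 3101 to 8369, belonged to another. Before normalization this percentile was 1543 to 2137 on young fear arrays and 892 to 1361 on young control arrays, with no overlap. It was 1152 to 1732 on old fear arrays and 757 to 1667 on old control arrays. The part of this brightness in the results was not tested. On old control array 2, 528 probes lay more than 4 log2 units below every other array of that group, against 0 on the other 3 old control arrays. Those probes included 1 each of Cox5a, Cox6a1, Cox6b1 and Uqcrq, so changes of Cox5a, Cox6b1 and Uqcrq are given with and without that array. In both fear groups, arrays 1 and 2, and arrays 3 and 4, lay closest together. The median absolute log2 difference was 0.113 and 0.144 for these pairs in young fear, against 0.208 to 0.259 for its other pairs, and 0.166 and 0.15 in old fear, against 0.175 to 0.270. By this measure the control groups did not follow these pairs throughout. Young control arrays 3 and 4 differed by 0.274, against 0.231 for arrays 1 and 4. Old control arrays 1 and 2 differed by 0.304, against 0.222 for arrays 1 and 3. Yet the summed signal of choroid plexus genes, described below, split by these pairs in both control groups. In young control it was 143000 and 148000 on arrays 1 and 2, and 99800 and 106000 on arrays 3 and 4. In old control it was 108000 and 112000, against 164000 and 156000. With array pairs as a random block, the consensus correlation was 0.32. The main fit treated arrays as independent, so its p-values do not allow for such pairs. In a bulk sample, fewer cells of a type and less RNA per cell cannot be told apart.

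The sequences below show the probes and promoters of members whose changes are described next. Sdha is shown because its 3 probes moved in different directions, Atp5j2 because its probes moved in opposite directions, and Cox8b because it had the largest change in young fear against young control. These are the first 30 bases of each array probe, as the scanner files give them on mm9, in order of signal from the brightest. The Sdha probes lie at chr13:74460146-74460205, chr13:74465756-74465815 and chr13:74486662-74486720, minus strand, probes 1 and 2 designed from RefSeq transcripts and probe 3 from a cDNA clone. Those of Atp5j2 lie at chr5:145945453-145945512 (RefSeq) and chr5:145950674-145950733 (cDNA), minus strand, and that of Cox8b at chr7:148084852-148084911, minus strand.
Sdha probe 1: tgcagcacaagtattgttttgttcattctc
Sdha probe 2: tgaatcttgacaagttgagatttgccgatg
Sdha probe 3: taagtcagccacctataattgtagcagaat
Atp5j2 probe 1: gaccggtattacaacaagtacatcaacgtt
Atp5j2 probe 2: aagtagagggttagtgtgaagagacctttg
Cox8b probe: ctataaaaagagctccgcagcatgaagttg

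The promoters of 3 genes follow, each the 250 bases before the gene's start in RefSeq's GRCm38.p6 table, 5′ to 3′ on the gene's strand. Cox7a2 fell in young fear, Sdha gave rising and falling probes, and Cox8b fell most there. Capitals mark matches to GCGCNTGCG, a site of the nuclear respiratory factor NRF1, to CCGGAAG, bound by ETS factors such as GABP, or to AAGATGGCG, bound by YY1, searched on both strands. The windows lie at chr9:79759854-79760103, chr13:74350241-74350490 and chr7:140900447-140900696, all on the minus strand.
Cox7a2: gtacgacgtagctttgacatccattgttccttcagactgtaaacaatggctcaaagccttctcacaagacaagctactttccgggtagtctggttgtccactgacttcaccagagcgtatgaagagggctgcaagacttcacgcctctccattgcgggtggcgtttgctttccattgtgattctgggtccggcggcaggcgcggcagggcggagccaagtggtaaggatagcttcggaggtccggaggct
Sdha: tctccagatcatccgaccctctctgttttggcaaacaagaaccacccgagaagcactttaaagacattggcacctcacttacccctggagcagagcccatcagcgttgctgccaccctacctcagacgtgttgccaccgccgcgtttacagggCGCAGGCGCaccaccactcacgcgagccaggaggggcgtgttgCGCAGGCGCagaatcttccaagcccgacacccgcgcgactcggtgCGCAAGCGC
Cox8b: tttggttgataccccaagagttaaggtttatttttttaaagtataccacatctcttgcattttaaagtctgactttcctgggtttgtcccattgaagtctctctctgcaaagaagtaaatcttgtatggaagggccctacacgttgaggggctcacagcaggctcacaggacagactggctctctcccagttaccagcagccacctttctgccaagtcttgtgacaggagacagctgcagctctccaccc

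The Sdha window held 3 matches to the NRF1 letters, and those of Cox7a2 and Cox8b held none of the searched letters. Of 78 subunit genes, 65 had a promoter in the table. The NRF1 letters stood in 16 of them (24.6%), against 5.88% of the 27025 genes in the table. The ETS letters stood in 12 (18.5%), against 7.83%, and the YY1 letters in 1 (1.54%, Atp5j), against 0.71%. In young fear against young control, the median log2 change was -0.46 for the 16 genes with the NRF1 letters and -0.42 for the 49 without them, taking the brightest probe of each gene. For the ETS letters it was also -0.46 with and -0.42 without.

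One hour after fear conditioning, most subunit probes were lower in young mice. Between young fear and young control, 68 of 111 subunit probes fell and 6 rose at an adjusted p under 0.05 (limma, Benjamini-Hochberg over 38768 probes), where 20.7% of all probes tested were lower and 22.6% higher. The median log2 change of the subunits was -0.41, against -0.08 over all probes. With 1 probe per gene, the brightest, 52 of 78 genes fell and 1 rose. Averaging arrays 1 and 2, and arrays 3 and 4, of every group, a choice made after the data were seen, left 43 probes lower and 4 higher. Without old control array 2 the counts were 73 and 7. The shares of 20.7% and 22.6% are those of the main fit and do not apply to these other fits. Subunits are bright, and 87 of the 111 probes lay in the brightest of 10 equal classes of all probes. In that class the median change was -0.05 and 30.8% of the probes were lower, against 20.7% of all probes.

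Per array, the median deviation of the subunits from their mean over all arrays was -0.28 to -0.18 on the 4 young fear arrays and 0.11 to 0.19 on the 4 young control arrays. The groups did not overlap. Within each of the 4 slides that held both groups, the median young fear minus young control difference of the subunits was -0.47 to -0.33. Relative to all probes the direction held under the other scalings, where the subunit and all-probe medians were -0.83 and -0.27 with 75th percentile scaling and -0.69 and -0.13 with median scaling.

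**Figure D1:**
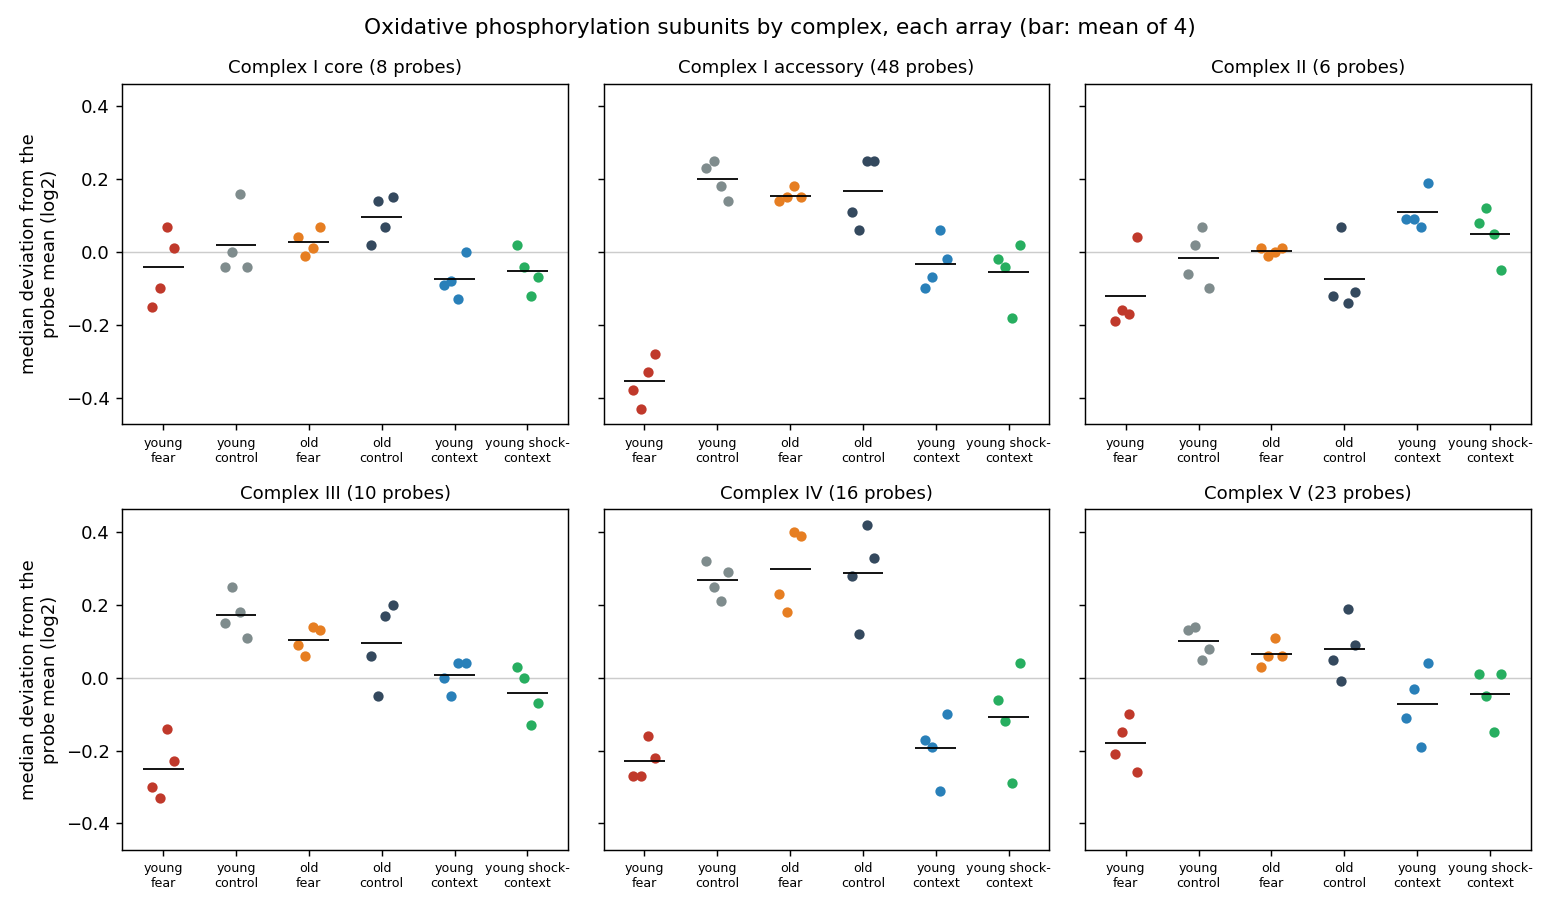
Median deviation of each complex's probes from their means over 24 arrays (log2), 1 point per array, with a bar at the mean of 4 arrays; complex I is divided into core and accessory subunits. Young fear arrays lie below young control arrays for complex I accessory subunits (-0.43 to -0.28 against 0.14 to 0.25), III, IV and V, and overlap them for complex I core subunits and complex II.

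In complex I, 34 of 56 probes fell in young fear and 0 rose, with a median log2 change of -0.45. The accessory subunits carried nearly all of these calls: 33 of 48 accessory probes fell, with a median of -0.50, against 1 of 8 core probes, with a median of -0.16. That difference between the classes was not tested.

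Ndufa1, an accessory subunit needed to assemble complex I, had log2 signals of 14.72, 14.67, 14.83 and 15.01 in young fear, against 15.93, 16.30, 16.35 and 16.09 in young control. Every young fear value lay below every young control value. The gene fell 2.57-fold (log2 change -1.36 ± 0.11, SE; limma adjusted p = 4.09e-09), and its second probe fell by 1.09 on the log2 scale. Ndufb3, another accessory subunit, measured 14.24, 14.42, 14.32 and 14.14 in young fear and 15.66, 15.72, 15.64 and 15.66 in young control. It fell 2.62-fold (-1.39 ± 0.12, adjusted p = 1.34e-08) and had the lowest change of any subunit probe. Ndufa9 (-0.88), both probes of Ndufa11, which overlap on the genome (-1.29 and -1.17), and both RefSeq probes of Ndufc1 (-1.12 and -1.04) also fell.

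The core subunits moved less. Ndufv1, the flavoprotein that binds NADH, read 15.47, 15.44, 15.64 and 15.57 in young fear and 15.37, 15.35, 15.59 and 15.50 in young control, so the groups overlapped (0.08 ± 0.08, adjusted p = 0.48). Ndufs1, Ndufs3, Ndufs7 and Ndufs8 had log2 changes of -0.16, -0.15, -0.16 and -0.25, and none passed the test. The RefSeq probe of Ndufv2, a core iron-sulphur subunit, fell by 0.24 (adjusted p = 0.0321), but did not pass without young fear array 3 or 4 (adjusted p = 0.0932 and 0.0827) or young control array 1 or 2 (0.0814 and 0.0883). Highest among the complex I members were Ndufab1 (0.33), Ndufa10 (0.24) and the dim cDNA probe of Ndufb8 (0.55), none past the threshold.

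Complex II, which is also an enzyme of the citric acid cycle, was divided. Sdhb, its iron-sulphur subunit, had 14.25, 14.17, 14.25 and 14.34 in young fear, against 15.05, 15.06, 14.71 and 14.72 in young control, and fell by 0.64 ± 0.09 (adjusted p = 1.01e-05). Sdhd, a membrane anchor, fell by 0.36 (adjusted p = 0.0255), a call lost on leaving out young fear array 1 or 3 (adjusted p = 0.059 and 0.0539) or young control array 2 or 3 (0.0874 and 0.0601). Sdhc, the other anchor, had -0.09 without passing.

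Sdha, the flavoprotein that oxidizes succinate, gave opposite results by probe. Probe 1 read 14.21, 14.08, 14.24 and 14.41 in young fear, against 13.64, 13.71, 13.77 and 13.61 in young control, and rose by 0.55 ± 0.08 (adjusted p = 8.38e-06). Probe 2 read 13.53, 13.63, 13.93 and 14.25 in young fear, against 12.79, 12.77, 13.00 and 12.64 in young control, and rose by 1.04 ± 0.12 (adjusted p = 4.4e-07). Both RefSeq probes were thus higher on every young fear array. The cDNA probe read 9.05, 9.09, 8.87 and 8.85 in young fear, against 9.81, 9.88, 9.84 and 9.78 in young control, and fell by 0.86 ± 0.13 (adjusted p = 1.21e-05). The file annotation gives all 3 the same gene name, and whether they report the same transcript was not tested.

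**Figure D2:**
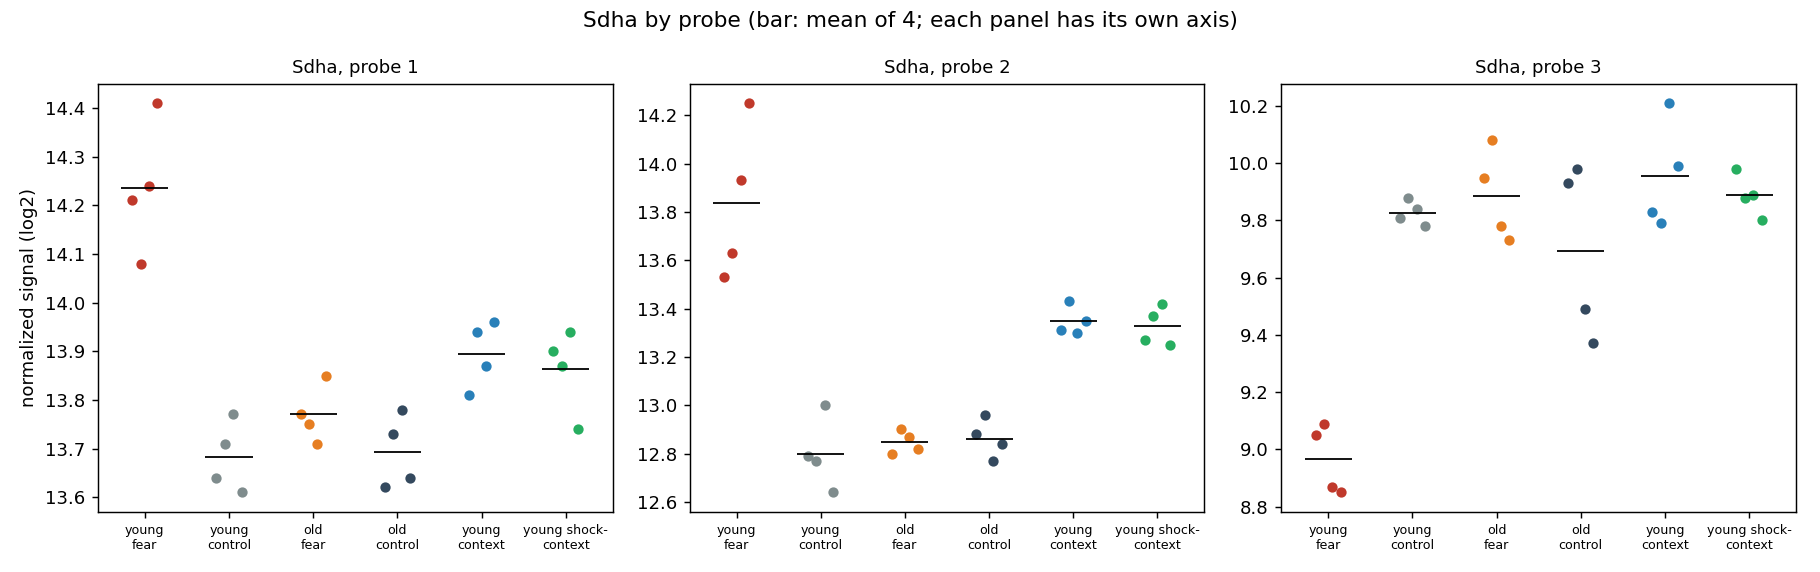
Normalized log2 signal of the 3 Sdha probes on every array, by group, with a bar at the mean of 4 arrays. Young fear arrays lie above young control arrays for probes 1 and 2 (up to 14.41 and 14.25) and below them for probe 3 (8.85 to 9.09).

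In complex III, 7 of 10 probes fell and 1 rose. Uqcrb, a small subunit near the quinone site, read 13.94, 14.17, 13.98 and 14.07 in young fear and 14.94, 15.40, 15.29 and 15.03 in young control, with no overlap. It fell 2.19-fold (-1.13 ± 0.15, adjusted p = 2.36e-06). The core protein Uqcrc1 (-0.56), the hinge protein Uqcrh (-0.62), Uqcr (-0.46) and the Rieske iron-sulphur protein Uqcrfs1 (-0.39) also fell. The probe that rose was a dim cDNA probe of Uqcrq (0.54, adjusted p = 0.00243, and 0.064 with 75th percentile scaling). The RefSeq probe of Uqcrq had -0.48 ± 0.71 (adjusted p = 0.617), and -0.48 ± 0.12 (adjusted p = 0.00169) when old control array 2 was left out of the fit.

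In complex IV, 10 of 16 probes fell and 0 rose. Cox7a2, the form of subunit 7a found in most tissues, read 14.73, 14.74, 14.75 and 14.93 in young fear and 16.03, 16.21, 16.38 and 16.05 in young control. The groups were more than 1 log2 unit apart, and the gene fell 2.60-fold (-1.38 ± 0.11, adjusted p = 9.58e-09), while its second probe, which overlaps the first on the genome, fell by 1.28. Cox7a1, the heart and muscle form, read 10.65, 10.53, 10.48 and 10.66 in young fear and 11.84, 11.86, 11.43 and 11.45 in young control (-1.06 ± 0.15, adjusted p = 8.37e-06).

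The other isoforms differed among themselves. Cox4i1 had -0.17 without passing and Cox4i2, its lung and hypoxia form, fell by 0.61 (adjusted p = 0.0294), a call lost on leaving out young fear array 2 or 3 (adjusted p = 0.0805 and 0.0844) or young control array 2 or 3 (0.0755 and 0.0587). It was also lost with 75th percentile and median scaling (0.0604 and 0.0903), and the change was only -0.21 with normexp background correction (0.0982) and -0.23 in the deposited table (0.0806). Cox6a2, the muscle form of subunit 6a, had -0.21 without passing. The probe of Cox6a1 was saturated on 2 arrays and read 18.51 on all 4 young fear arrays, so no change is given for it. Cox6b1 had -0.84 ± 0.94 (adjusted p = 0.505) with that array and -0.84 ± 0.15 (adjusted p = 0.000106) without it, and its testis form Cox6b2 fell by 0.80. Cox5a was 0.38 ± 0.85 (adjusted p = 0.75) with that array and 0.38 ± 0.15 (adjusted p = 0.0455) without it. Cox8a, the form of subunit 8 found in most tissues, fell by 0.31 (adjusted p = 0.0447), and its call was lost on leaving out young fear array 1, 2 or 4 or young control array 1, 3 or 4 (adjusted p 0.0643 to 0.118).

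In complex V, 14 of 23 probes fell and 3 rose. Atp5j2, subunit f of the membrane part, read 15.19, 15.26, 15.42 and 15.52 in young fear and 16.26, 16.30, 16.60 and 16.32 in young control, and fell by 1.02 ± 0.11 (adjusted p = 3.67e-07). Its dim cDNA probe read 8.80, 8.76, 9.24 and 9.38 in young fear and 8.12, 8.06, 8.06 and 8.23 in young control, and rose by 0.93 ± 0.15 (adjusted p = 4.74e-05). Atp5g1, a gene of the rotating c ring, fell by 0.79, Atp5j by 0.59 and Atp5l by 0.53.

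Atp5b, the catalytic beta subunit, did not fall by any probe. Probe 3 read 13.68, 13.64, 14.16 and 13.99 in young fear and 13.12, 12.96, 12.73 and 13.01 in young control, and rose by 0.91 ± 0.11 (adjusted p = 1.54e-06). Probe 2 rose by 0.41 (adjusted p = 0.0157), but lay at -0.01 with 75th percentile scaling and did not pass without young control array 4 (adjusted p = 0.0593) or young fear array 4 (0.0688). Probe 1, the brightest, which was saturated on 1 array, had 0.10 without passing. Atp5a1, the alpha subunit, had 0.12 and -0.02, neither past the threshold, and its brighter probe was saturated on 1 array. Of the 25 subunit genes with several probes, 10 had every probe lower and 2, Sdha and Atp5j2, had probes called in both directions. Among those 10, some probes of Cox7a2, Ndufa8, Ndufa11 and Ndufs6 overlap on the genome, so they are not independent readings.

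**Figure D3:**
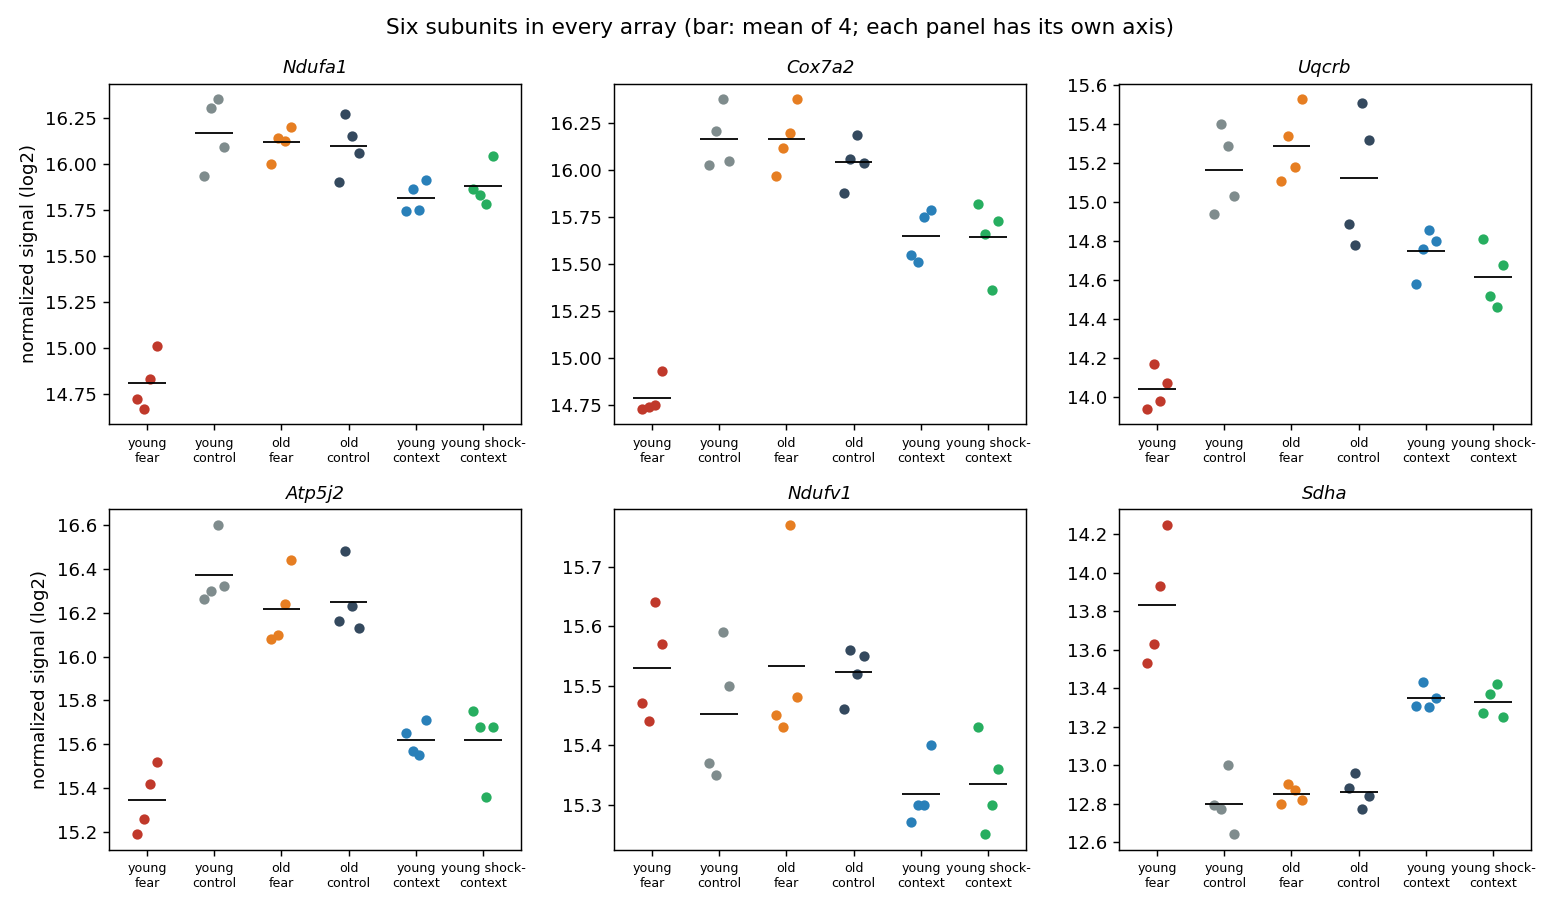
Normalized log2 signal of 6 subunits on every array, by group, with a bar at the mean of 4 arrays. Ndufa1, Cox7a2, Uqcrb and Atp5j2 (first probes) lie lower on every young fear array than on every young control array, Ndufv1 overlaps, and Sdha probe 2 lies higher.

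In old mice no subunit probe passed the test after the same training. Between old fear and old control, 0 of 111 subunit probes passed (limma), where 0.400% of all probes did, and the median change was -0.01. At an unadjusted p under 0.05 there were 11, of which 10 were lower, where 16.0% of all probes had such a p. With the slide as a replicate block, 26 of all probes passed in place of 155, and still 0 subunits. The subunit probes of smallest p were Atp5j2's cDNA probe (0.64, adjusted p = 0.067), Uqcrc1 (-0.38, adjusted p = 0.162) and Atp5g2 (-0.39, adjusted p = 0.193). Cox5a, Cox6b1 and Uqcrq had 1.60, 1.59 and 1.20, and 0.06, -0.13 and -0.09 without old control array 2.

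**Figure D4:**
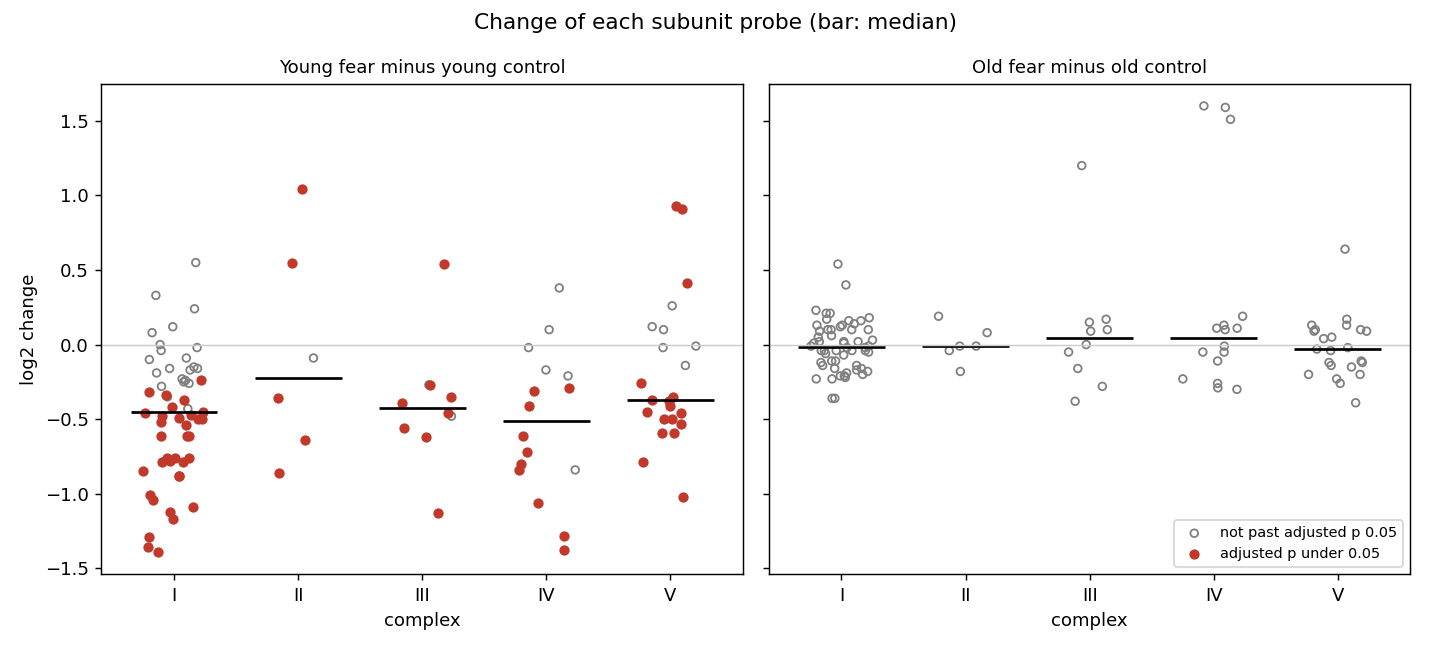
Log2 change of each subunit probe by complex, young fear minus young control at left and old fear minus old control at right; filled points passed an adjusted p of 0.05 and bars mark medians. At left 68 points are filled below 0 and 6 above it, and at right none is filled; the 4 highest open points at right are the genes affected on old control array 2.

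The difference between the ages was tested itself, as the old response minus the young response. It passed for 47 of 111 subunit probes, 44 higher and 3 lower, where 11.9% of all probes were higher and 14.8% lower. With array pairs averaged the counts were 14 and 2, to which those shares do not apply. This contrast shares the young control and young fear arrays with the comparison above, so the values are given as its own. Cox7a2 differed by 1.51 ± 0.16 (adjusted p = 1.62e-06), Ndufb3 by 1.44 ± 0.17 and Ndufa1 by 1.38 ± 0.15. The 3 that ran the other way were Sdha probes 2 and 1 (-1.05 and -0.48) and Atp5b probe 3 (-1.02). The call of Sdha probe 1 was lost with 75th percentile scaling (-0.23, adjusted p = 0.143) and with median scaling (-0.30, adjusted p = 0.169). Cox5a, Cox6b1 and the RefSeq probe of Uqcrq had 1.22, 2.42 and 1.68, none past the threshold. Without old control array 2 they had -0.33, 0.71 and 0.40, and only Cox6b1 passed (limma, adjusted p = 0.0192). By complex, 26 of 56 probes of I, 3 of 10 of III, 6 of 16 of IV and 7 of 23 of V were higher, as were 2 of 6 of II.

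Untrained old and young mice did not differ past the threshold in any subunit probe. Between old control and young control, 0 of 111 probes passed (limma), where 0.794% of all probes did, or 112 in place of 308 with the slide as a replicate block. At an unadjusted p under 0.05 there were 5, where 11.3% of all probes had such a p. Cox7b2, a testis form of subunit 7b, had the smallest p (0.65 ± 0.16, adjusted p = 0.0613). After training the ages stood apart: between old fear and young fear, 67 probes were higher and 6 lower, where 18.5% and 21.2% of all probes were. Array pairs averaged left 35 and 3, to which those shares do not apply. Between old fear and young fear, Cox6b1 (1.00) and the RefSeq probe of Uqcrq (0.66) did not pass in the main fit. They passed without old control array 2 (limma, adjusted p = 1.62e-05 and 9.11e-05), and Cox5a (-0.05) passed in neither fit. In old fear, Ndufa1 averaged 16.11 ± 0.08, Ndufb3 15.74 ± 0.14 and Cox7a2 16.17 ± 0.17 (log2 signal, SD, n = 4).

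Young context mice were then set against young shock-context mice, which differed in the shock. Between young context and young shock-context, 0 of 111 probes passed (limma; 0 at an unadjusted p under 0.05), where 2 of 38766 probes did (0.00516%) and 4.84% had an unadjusted p under 0.05. Both groups were also set against young control, which they share, but they were read in the other scan run, so run and group cannot be told apart there. Against young control, young context had 21 probes higher and 49 lower, where 30.4% and 34.3% of all probes were, and young shock-context had 18 higher and 48 lower, where 29.3% and 31.6% were. Uqcr differed by -0.93 in young context and -0.89 in young shock-context, Ndufa9 by -0.90 and -0.76, and Atp5b probe 3 by 1.21 and 1.06.

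Cox8b, the heart and muscle form of subunit 8, changed more in young fear against young control than any subunit probe. Its log2 signal was 7.37, 7.28, 7.64 and 7.60 in young fear, against 11.21, 11.19, 10.62 and 10.73 in young control. It fell 11.1-fold (-3.47 ± 0.29, adjusted p = 1.19e-08), with no overlap. It measured 11.77, 11.65, 12.57 and 12.63 in old fear, against 12.20, 12.24, 12.61 and 12.75 in old control (-0.29 ± 0.29, adjusted p = 0.659). Old control stood above young control by 1.51 ± 0.29 (adjusted p = 0.0141). That call was lost without old control array 3 (1.45, adjusted p = 0.054) or 4 (1.41, 0.0648), with array pairs as a random block (0.105), with array pairs averaged (0.558) and with only the compared arrays fitted (0.0582). The old response exceeded the young one by 3.17 ± 0.41 (adjusted p = 1.14e-05). In young context it was 10.09, 10.08, 10.79 and 10.54, against 10.73, 10.63, 10.02 and 11.81 in young shock-context (-0.42 ± 0.29, adjusted p = 0.998).

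Some markers of other tissues and of brain cell types also moved. In young fear against young control, 22.6% of all probes were higher and 20.7% lower, and the young fear counts below stand beside those shares. Of 26 kept probes of genes of the choroid plexus, which secretes cerebrospinal fluid, 24 were lower in young fear and 0 higher, with a median of -2.45; Ttr, its main secreted protein, had -4.65. The summed signal of 19 of these genes was 13900 to 20900 on young fear arrays and 99800 to 148000 on young control arrays. Old control against young control gave 1 higher and 0 lower of the 26, where 0.794% of all probes passed, with a median of 0.12. Of 27 muscle and heart probes, 12 fell and 2 rose in young fear (median -0.35), with summed signals of 13400 to 17500 in young fear and 18000 to 20800 in young control. Of 8 brown fat probes, 3 fell and 0 rose, and the summed signal was 5390 to 6150 in young fear and 9220 to 14200 in young control, with no overlap. Thalamus markers had 23 of 36 probes higher and 1 lower (summed signal 147000 to 179000 in young fear, 79200 to 99900 in young control), oligodendrocyte markers 16 of 20 higher and 0 lower (375000 to 434000 and 215000 to 253000), and hippocampal excitatory neuron markers 9 of 21 higher and 2 lower. Of 22 astrocyte probes, 8 rose and 8 fell, while the summed signal was 152000 to 176000 in young fear and 207000 to 230000 in young control. Microglia, endothelium and interneuron markers had 2 of 14, 4 of 13 and 4 of 20 probes higher and 5, 5 and 3 lower. The interneuron counts lay near or below the shares of all probes. Young context and young shock-context, of the other scan run, also stood off young control in some lists, given in that order. Brown fat sums were 6020 to 6950 and 6340 to 6980. Muscle and heart sums were 13600 to 15700 and 13900 to 18300, of which the second overlapped young control. Microglia sums were 39000 to 44100 and 41900 to 46900, against 52200 to 62900 in young control. Interneuron sums were 214000 to 239000 and 230000 to 249000, against 256000 to 283000 in young control. Oligodendrocyte sums were 440000 to 473000 and 415000 to 473000. Choroid plexus sums (88800 to 190000 and 101000 to 203000) and thalamus sums (81100 to 86400 and 80600 to 87500) overlapped young control. In old mice the thalamus markers also stood apart. Of their 36 probes, 9 were higher and 0 lower in old fear against old control, where 0.400% of all probes passed, and the summed signals of 111000 to 143000 in old fear and 90100 to 94100 in old control did not overlap. In that comparison 1 microglia probe was lower, and none of the other lists named here had a probe past the threshold; the choroid plexus median was -0.35. The part of these tissues in the subunit and Cox8b results was not tested.

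**Figure D5:**
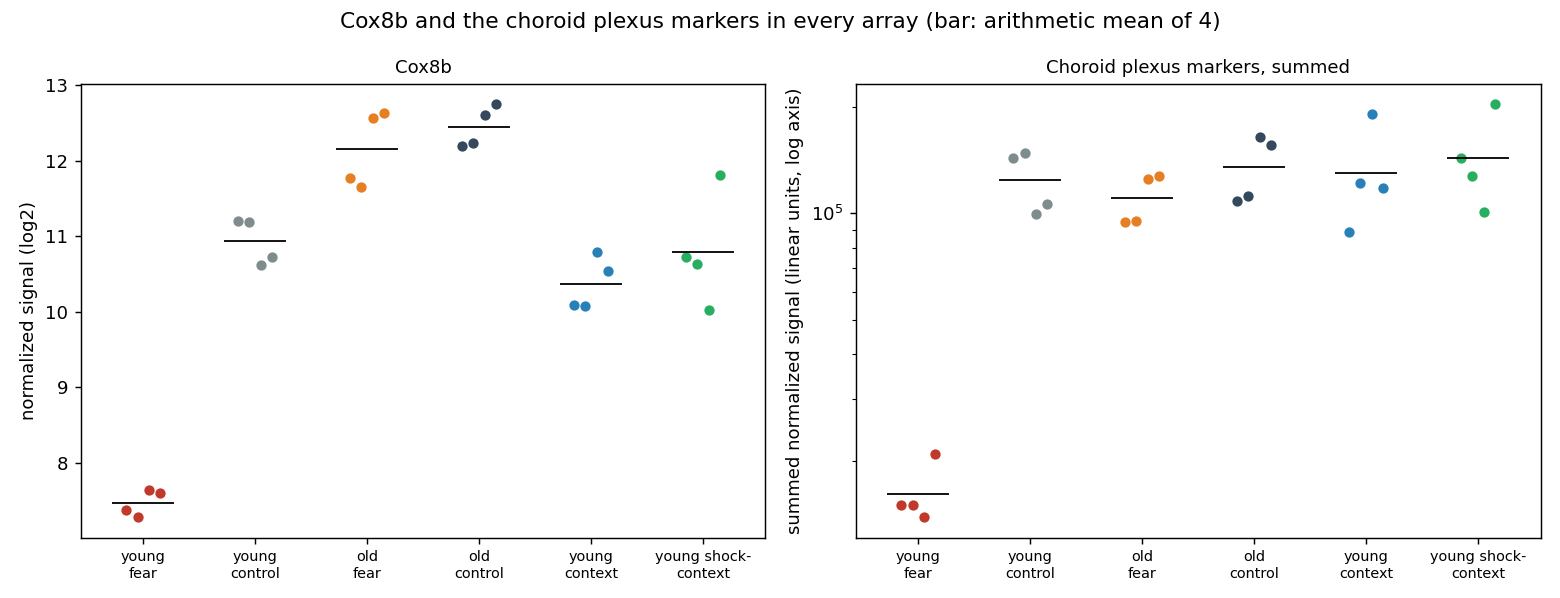
Left, normalized log2 signal of Cox8b on every array; right, summed signal of 19 choroid plexus marker genes (log axis), with a bar at the mean of 4 arrays. Both are lowest on the young fear arrays (Cox8b 7.28 to 7.64, markers 13900 to 20900), while Cox8b is higher in old control than in young control and the marker sums of those groups overlap.

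Genes around the complexes were mixed in young fear, where 22.6% of all probes were higher and 20.7% lower, and the counts below are to be read beside those shares. Cycs, the cytochrome c that carries electrons to complex IV, fell by all 3 probes (-0.95, -0.65 and -0.65), although 1 probe at -0.65 did not pass with normexp background correction (-0.43, adjusted p = 0.149), and Cyc1 had 0.07 without passing. Of 30 probes of the citric acid cycle and pyruvate dehydrogenase, 9 rose and 2 fell, among them Dlat (1.10) and Ogdh (1.12 and 0.92), which belong to the dehydrogenases that feed and run the cycle. Of 32 assembly factor probes, 8 rose and 10 fell, with the copper chaperone Cox17 at -0.93, Cox11 at -0.99 and the RNA-binding protein Lrpprc at 1.97. The call of 1 Lrpprc probe was lost with normexp background correction (0.18, adjusted p = 0.193) and in the deposited table (0.23, adjusted p = 0.142). Of 28 probes of mitochondrial membrane transport, 3 rose and 11 fell, including the import proteins Tomm7 (-1.46) and Timm10 (-1.21). Of 28 probes of regulators, 9 rose and 4 fell, including Yy1 (0.80) and Gabpa (0.85), factors that bind the motifs searched above. The call of 1 Yy1 probe was lost with array pairs averaged (0.36, adjusted p = 0.0899). In old fear against old control, 1 probe of these 5 lists passed, a transport probe that rose.

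The genes that share a prefix without being subunits differed among themselves. Atp5s, a coupling factor, fell by 1.08 with its brighter probe, and the assembly factor Ndufaf2 fell by 0.65, while Ndufaf1 had -0.22 without passing. Cox7a2l had 0.13 without passing. Cox4nb fell by 0.63 with one probe and rose by 0.58 with the other, and neither probe of Atp5sl passed.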

How the data were processed

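Hippocampal RNA of 24 mice was read on 24 arrays. The authors' scanner files were written by Agilent's Feature Extraction, version 9.5.3.1 per the file headers, and give intensity per spot, with background already subtracted in the processed signal. The authors also deposited a table of log2 values, its scale inferred from agreement with the scanner signals, which served as an alternative. Control spots were left out, outlier spots set to missing and spots of a probe averaged; log2 of the processed signal was quantile normalized over all arrays. Gene names and mm9 positions are those of the second-run files. The 38768 probes well above background on 4 or more arrays entered 1 limma fit (version 3.58.1, R 4.3.3), with 18 residual degrees of freedom and two-sided tests, Benjamini-Hochberg over all probes. The number of arrays limits the precision. The fit was tested on simulated data.

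The members, lists and alternatives were chosen with earlier results of these data known. Genes were named by rule: up to 4 of smallest p per complex and direction in young fear against young control, up to 3 in other comparisons, plus isoform pairs, complex I core, Sdh genes, Cox8b and genes with opposed probes; others named beside them were chosen after their values were seen. One gene that the rule names is not reported here. Replicate numbers 1 to 4 of the control and fear groups coincide with slides in the file headers; 14 of 24 same-numbered pairs had deviations correlated above 0.1 (-0.417 to 0.655), and the slide was used as a replicate block. Alternatives were other scalings, normexp with an offset of 50, other filters, 1 probe per gene, the deposited table, blocks, the compared arrays alone and leaving out single arrays; array pairs averaged, and old control array 2 left out of every comparison, were added after the data were seen.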

Additional observations from a re-analysis of the deposited data

Results flagged for a closer look

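On old control array 2, Cox5a (10.62), Cox6a1 (12.43), Cox6b1 (5.90) and Uqcrq (11.72, first probe) stood far below the other 3 old control arrays, by 5 log2 units or more. Smaller gaps set apart Cox7a2 on young fear array 4 (14.93), Ndufv1 on old fear array 3 (15.77), Cox5a on young control array 3 (15.93) and young context array 3 (16.32), Cox6b1 on young shock-context array 3 (11.91) and Uqcrq on young shock-context array 4 (16.60). The complex II median stood apart on 1 young fear array (0.04) and 1 old control array (0.07). Over all kept members, 56 of 725 sets of 4 arrays had such a gap (7.72%), where chance gives about 1 in 20.

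The response to fear conditioning differed between old and young mice for 47 subunit probes by the interaction test in limma. Among members with printed values, the old minus young response was 1.51 for Cox7a2, 1.44 for Ndufb3, 1.38 for Ndufa1, 1.30 for Uqcrb, 0.98 for Atp5j2, 0.77 for Cox7a1 and 0.62 for Sdhb. It was -0.48, -1.05 and 1.05 for Sdha probes 1, 2 and 3, -1.02 for Atp5b probe 3, and 3.17 for Cox8b.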

How the results depend on the processing

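With 75th percentile scaling the subunits' median change was -0.83 for young fear against young control, -0.11 for old fear against old control, 0.65 for old minus young response, 0.69 for old fear against young fear, -0.06 for young context against young shock-context, and -0.60 and -0.54 for young context and young shock-context against young control. With median scaling the moved medians were -0.69, 0.57 (old minus young response), 0.61 (old fear against young fear), -0.09 (young context against young shock-context) and -0.15 (young shock-context against young control). One probe per gene gave -0.32 and -0.29 for young context and young shock-context against young control, and the deposited values gave -0.29 for both and 0.44 for old minus young response. Array pairs averaged left 47 calls in young fear against young control, 16 in old minus young response and 38 in old fear against young fear, with fewer values per group. Old control against young control gave 1 call, Cox7b2, with 75th percentile scaling and with probes well above background on all 24 arrays; the latter filter also gave 1 call, Atp5j2's cDNA probe, in old fear against old control. Leaving out 1 array at a time gave 68 to 80 calls (medians -0.43 to -0.39) in young fear against young control, 0 to 1 (-0.03 to 0.02) in old fear against old control, where Atp5j2 passed without old control array 1, 41 to 51 (0.35 to 0.42) in old minus young response, 0 to 1 (-0.02 to 0.02) in old control against young control, where Cox7b2 passed without young control array 1 or old control array 2, 65 to 76 (0.36 to 0.40) in old fear against young fear, 0 (-0.05 to 0.01) in young context against young shock-context, 65 to 75 (-0.23 to -0.17) in young context against young control and 60 to 67 (-0.24 to -0.20) in young shock-context against young control. With the replicate block (slide) the counts were 71, 0, 40, 0 and 64 for the first 5 comparisons of control and fear groups, and it changed no other call by over 1.5 times. Of 1758 recomputed calls of named genes, 1684 held, 73 were lost and 1 turned, Atp5b probe 2 in young fear at -0.01 with 75th percentile scaling. No share of all probes stands beside the counts of this section, and causes were not tested.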
